A study of Homo sapiens with 8 samples.

Results

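The 10 genes described here belong to the machinery that drives cells into and out of mitosis, and were followed in ribosome footprints of neuroblastoma cells treated with an inhibitor of translation initiation. They are the cyclin genes CCNA2, CCNB1 and CCNB2, the kinase gene CDK1, its small partner subunits CKS1B and CKS2, its inhibitory kinase WEE1, the anaphase-promoting complex genes CDC20 and UBE2C, and PTTG1, which encodes securin. They were found by symbol among the 60651 genes of the deposited table. All 10 of 10 were present, and all 10 had a mean of at least 1 TPM and were tested. Under CR31B, CDK1 footprints fell to 0.682 times the DMSO level, a call that was lost in 6 of 17 alternatives. The cyclins, CKS2, CDC20, UBE2C and PTTG1 showed no detectable change, and CKS1B and WEE1 had lower estimates whose calls also depended on the fit.

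Entry into mitosis is driven by CDK1, a protein kinase that is active only when bound to a cyclin of the A or B type. WEE1 holds this complex inactive by phosphorylating CDK1, and CKS proteins bind the complex and help it to reach substrates that are already phosphorylated. Exit from mitosis needs the anaphase-promoting complex (APC/C), a ubiquitin ligase. With its activator CDC20 and the ubiquitin-conjugating enzyme UBE2C it marks B-type cyclins and securin for destruction, which shuts CDK1 off and frees the protease that separates sister chromatids.

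The cells were IMR32, a human neuroblastoma line with amplified MYCN, labelled wild type. They had received CR31B in 4 libraries and 0.1% DMSO, the solvent, in the other 4. CR31B belongs to the rocaglates, compounds that clamp the RNA helicase eIF4A onto purine-rich stretches of mRNA. Treatment lasted 6 h in both groups, the CR31B dose is not given in the sources used here, and all cells then received cycloheximide, which stalls elongating ribosomes, before footprints of 28 to 30 nt were isolated. The series' design text names 4 biological replicates. No matched measurement of mRNA level was used, so a change in footprints cannot be divided into mRNA level and translation.

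Values are in TPM, a share of all footprints after division by transcript length. That length includes untranslated regions, which differ between genes, so levels of different genes are not compared per coding base. The share of TPM in protein-coding genes was between 51.8% and 61.3%, highest in CR31B replicate 1. Adrenergic neuroblastoma markers were present (7 of 8 had a mean of at least 1 TPM, summed levels from 665.71 to 760.34 TPM in CR31B and from 598.27 to 769.47 TPM in DMSO). Of these 8, 1 had a limma adjusted p under 0.05. Of 6 mesenchymal-type neuroblastoma markers 3 reached that mean, with sums from 121.4 to 150.4 TPM in CR31B and from 106.24 to 163.76 TPM in DMSO. Most of this was VIM, with means of 131.1 and 125.4 TPM. Of 6 Schwann cell or fibroblast markers 1 reached a mean of 1 TPM. Across 11778 tested genes the median log2 fold change was 0.029, and 879 genes, or 7.46%, had a limma adjusted p under 0.05, of which 406 (3.45%) were higher and 473 (4.02%) lower in CR31B.

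One of the 10 genes has coding sequence that footprints cannot tell from other loci, which bears on its values throughout. Every one of the 213 windows of 28 nt in the 240-nt CKS1B coding sequence also occurs in the transcript of another annotated gene. The other genes in which such windows occur are 7 processed pseudogenes of CKS1B, and 3 of these carried most of the signal. The first 90 bases of the CKS1B coding sequence are shown with the same stretch of those 3 pseudogenes and of the paralog CKS2, from GENCODE release 29 transcripts. Capitals mark bases that differ from CKS1B.
CKS1B: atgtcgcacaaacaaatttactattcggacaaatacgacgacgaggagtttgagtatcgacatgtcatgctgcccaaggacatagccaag
CKS1BP6: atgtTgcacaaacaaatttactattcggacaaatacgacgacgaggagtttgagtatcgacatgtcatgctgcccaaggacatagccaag
CKS1BP3: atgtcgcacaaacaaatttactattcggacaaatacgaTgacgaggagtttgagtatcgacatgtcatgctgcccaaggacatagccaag
CKS1BP2: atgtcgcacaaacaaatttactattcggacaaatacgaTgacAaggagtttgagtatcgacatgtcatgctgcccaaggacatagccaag
CKS2: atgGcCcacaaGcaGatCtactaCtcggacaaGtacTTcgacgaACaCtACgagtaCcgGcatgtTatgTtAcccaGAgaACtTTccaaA

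Over the aligned coding sequence CKS1BP3, which is 3 bases shorter, differed from CKS1B by 1 substitution in 237 bases (C39T, counted from the A of the start codon as 1, CKS1B base first), CKS1BP2 by 2 (C39T and G43A) and CKS1BP6 by 9. The paralog CKS2 was identical to CKS1B at 72.9% of bases, so footprints separate the CKS subunits from each other. Of the other genes, CDK1, CCNA2 and CCNB1 shared no 28-nt window with another annotated gene. The share was 2.19% for WEE1, 9.66% for CCNB2, 12.7% for UBE2C, 31.5% for CKS2, 32.5% for CDC20 and 33.7% for PTTG1. Of 19 copies of the 10 genes found by name, 3 had a mean of at least 1 TPM, all of them copies of CKS1B, and no value of the other 16 exceeded 1.13 TPM.

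Control elements upstream of the start sites are a further feature that most of these genes share. Genes expressed late in the cell cycle often carry a cell cycle homology region (CHR), bound by the DREAM and MuvB complexes, together with CCAAT boxes, bound by NF-Y. In the 250 bases before the start sites listed by RefSeq (GRCh38.p14), TTTGAA or TTCGAA on either strand occurred in 14.3% of 35116 promoters and CCAAT on either strand in 32.0%. The table held start sites for CCNA2, CCNB1, CCNB2, CDK1, CKS1B, CKS2, CDC20 and PTTG1. Each of these had at least 1 CCAAT box, and CCNB2, CDK1, CKS1B, CKS2 and CDC20 also had a CHR match. For these 5 genes the 80 bases that hold the CHR match nearest to the start site are shown, with CHR and CCAAT letters in capitals.
CCNB2, chr15:59105066-59105145, plus strand: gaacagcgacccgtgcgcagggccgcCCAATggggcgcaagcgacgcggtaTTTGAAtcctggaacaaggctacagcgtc
CDK1, chr10:60778398-60778477, plus strand: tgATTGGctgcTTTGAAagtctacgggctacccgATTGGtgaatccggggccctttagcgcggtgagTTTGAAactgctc
CKS1B, chr1:154974601-154974680, plus strand: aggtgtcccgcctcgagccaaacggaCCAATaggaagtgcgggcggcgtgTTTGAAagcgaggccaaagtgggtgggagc
CKS2, chr9:89311115-89311194, plus strand: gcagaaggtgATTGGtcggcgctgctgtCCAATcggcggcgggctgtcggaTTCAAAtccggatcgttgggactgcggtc
CDC20, chr1:43358866-43358945, plus strand: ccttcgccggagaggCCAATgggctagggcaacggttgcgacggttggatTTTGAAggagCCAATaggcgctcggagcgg
In CCNB2, CKS1B and CKS2 the CHR match began 29, 30 and 29 bases before the start site, and the nearest CCAAT box 54, 54 and 52 bases before it. These matches are a description of letters, and no binding was measured. Other forms of the CHR and bases after the start site were not searched, so a gene without a match may still carry a CHR.

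The order of the footprint levels in TPM was CKS2, PTTG1, UBE2C, CCNB1, CCNB2, CDC20, CDK1, CCNA2, CKS1B and WEE1. Means over the 8 libraries ran from 263.7 TPM for CKS2 to 12.6 TPM for WEE1. The place of CKS1B rests on its own row, which leaves out reads counted in the rows of its copies. The means of CKS2, PTTG1 and UBE2C (263.7, 262.04 and 256.6 TPM) lay closer together than their spread between libraries. Their coding sequences filled 240 of 613, 609 of 1070 and 540 of 850 nt of the annotated transcripts, so this closeness holds in TPM alone. CDC20, at 89.1 TPM, stood below CCNB2 (118.3 TPM) with overlapping libraries. The kinase CDK1, at 39.7 TPM, lay below CCNB1 (159.8 TPM) in every library. In DMSO its libraries lay above those of its A-type partner CCNA2, at 38.56 to 53.1 against 27.47 to 32.59 TPM. In CR31B they overlapped, at 28.07 to 34.56 against 27.23 to 35.72 TPM (CCNA2 mean over all libraries 30.99 TPM).

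**Figure D1:**
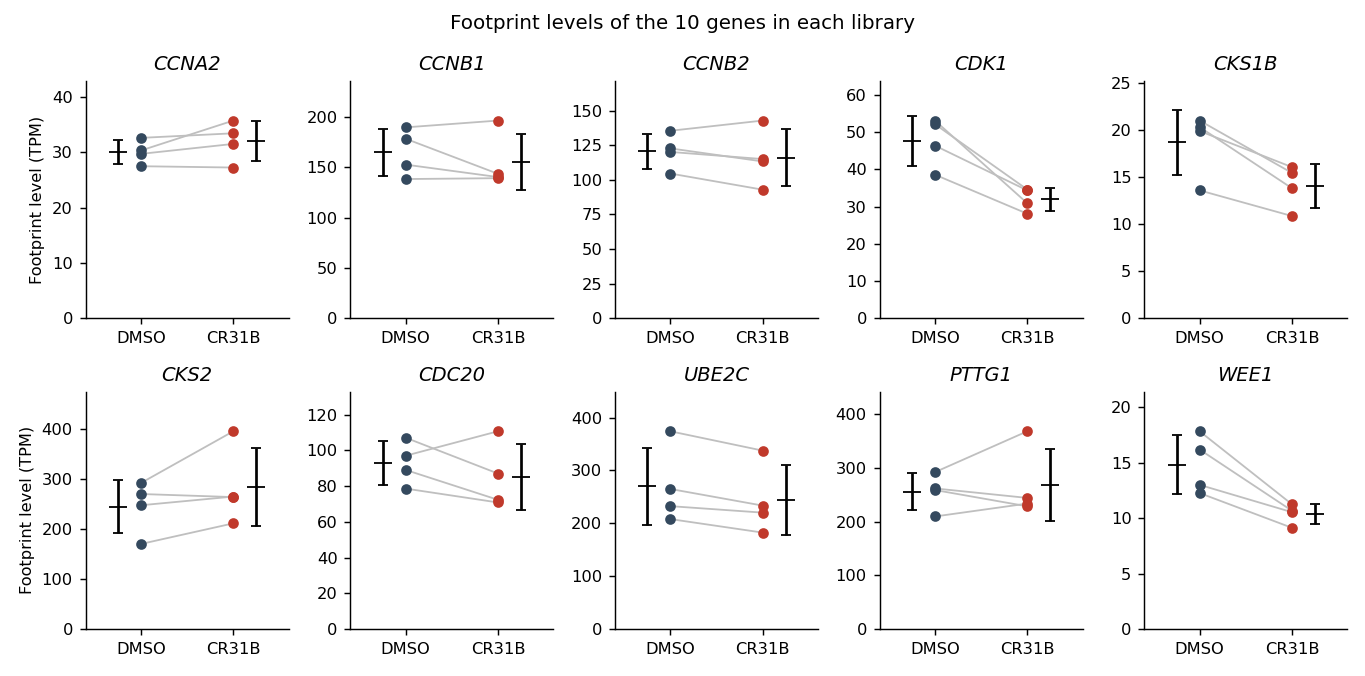
Footprint level in TPM (vertical axes, each from 0) of the 10 genes in DMSO (dark points) and CR31B (red points) libraries, with grey lines joining libraries of the same replicate number and black marks giving the mean and SD of 4. The groups are separate in CDK1 and WEE1 and overlap in the other 8 genes.

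Of the 10 genes 1 passed the test, against a background of 7.46% of all genes called. It was CDK1 (ENSG00000170312.16, chromosome 10 from 60778331 to 60794852 in GRCh38). Replicates 1 to 4, in this order here and for every gene, gave 34.56, 34.33, 28.07 and 30.87 TPM with CR31B, and 52.13, 46.37, 38.56 and 53.10 TPM with DMSO. Every CR31B library lay below every DMSO library, which was so in this direction for 8.14% of all tested genes. The mean was 31.96 ± 3.09 TPM with CR31B against 47.5 ± 6.68 TPM with the solvent (SD, n = 4 each). CDK1 thus fell by 0.55 on the log2 scale (95% confidence interval -0.84 to -0.26, SE 0.13, adjusted p of 0.0304 in limma), in 4 of 4 replicate pairs. The drop kept its size without any 1 library (log2 fold changes from -0.65 to -0.49). The call was lost, at limma adjusted p from 0.0709 to 0.0992, without CR31B replicate 3 or 4 or without DMSO replicate 1, 2 or 4. Estimated reads behind CDK1 ran from 2322 to 7948 per library.

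The B-type cyclins, which bind CDK1 at the onset of mitosis, did not show this drop. CCNB1 (ENSG00000134057.15, chromosome 5) was at 196.43, 140.27, 139.17 and 143.49 TPM in CR31B and at 189.66, 152.66, 138.30 and 178.38 TPM in DMSO. The groups overlapped, and in both of them replicate 1 was highest. The log2 fold change of CCNB1 was -0.094 (95% confidence interval -0.43 to 0.24, SE 0.15, adjusted p of 0.762 in limma), so a drop as large as the CDK1 estimate lay outside its interval. CCNB2 (ENSG00000157456.8, chromosome 15) was at 142.81, 92.87, 114.99 and 113.27 TPM in CR31B and at 135.42, 104.55, 120.15 and 122.72 TPM in DMSO. Its log2 fold change was -0.068 (95% confidence interval -0.38 to 0.25, limma adjusted p of 0.828), with the sign set by CR31B replicate 2 (0.033 without it).

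CCNA2 (ENSG00000145386.11, chromosome 4), the cyclin that acts with CDK2 in S phase and with CDK1 in late G2, had the smallest standard error of the 10 genes. Its levels were 33.42, 27.23, 35.72 and 31.50 TPM in CR31B and 32.59, 27.47, 30.31 and 29.70 TPM in DMSO. The CR31B libraries lay on both sides of the DMSO range, with a log2 fold change of 0.084 (95% confidence interval -0.17 to 0.34, SE 0.12, adjusted p of 0.718 in limma). An exon of CCNA2 overlaps EXOSC9 on the opposite strand, and whether reads were counted by strand is not given in the sources used here.

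WEE1 (ENSG00000166483.12, chromosome 11), the kinase that restrains CDK1, had the lowest level and the largest estimated drop after CDK1. It was at 10.67, 10.54, 11.25 and 9.13 TPM in CR31B and at 16.20, 13.01, 17.85 and 12.27 TPM in DMSO. All CR31B libraries lay below all DMSO libraries. Its log2 fold change was -0.46 (95% confidence interval -0.77 to -0.15, SE 0.14), with an adjusted p of 0.0738 in limma. With the replicate number as a block it was 0.0334, so the call depended on whether the pairing entered the fit. Median-of-ratios scaling and quantile normalization also gave limma adjusted p under the threshold (0.0494 and 0.0417). An exon of WEE1 overlaps a small nucleolar RNA gene on the same strand. Between 1241 and 3191 estimated reads stood behind WEE1 in a library.

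The ubiquitin-conjugating enzyme and the activator of the APC/C showed no detectable change. UBE2C (ENSG00000175063.17, chromosome 20), which starts ubiquitin chains on APC/C substrates, was at 337.57, 220.15, 182.35 and 233.46 TPM in CR31B and at 374.21, 232.45, 207.98 and 264.98 TPM in DMSO. It was lower in CR31B in 4 of 4 pairs, but the spread between replicates was larger than the difference. The log2 fold change was -0.15 (95% confidence interval -0.63 to 0.33, SE 0.22, adjusted p of 0.736 in limma, and 0.251 with the replicate block). Without DMSO replicate 1 it was 0.020. CDC20 (ENSG00000117399.14, chromosome 1), which brings substrates to the complex, was at 110.73, 70.83, 72.32 and 87.03 TPM in CR31B and at 97.02, 78.62, 89.08 and 107.12 TPM in DMSO. Its groups overlapped, with a log2 fold change of -0.14 (95% confidence interval -0.49 to 0.22, SE 0.16, adjusted p of 0.656 in limma).

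Securin, the inhibitor of separase that the APC/C destroys at anaphase, was likewise unresolved. PTTG1 (ENSG00000164611.13, chromosome 5) was at 368.25, 228.39, 233.55 and 244.04 TPM in CR31B and at 292.06, 258.77, 209.49 and 261.74 TPM in DMSO. CR31B replicate 1 was above every other library, and the remaining CR31B libraries lay within the DMSO range. The log2 fold change of 0.052 (95% confidence interval -0.33 to 0.43, SE 0.17, adjusted p of 0.894 in limma) was -0.11 without CR31B replicate 1 and -0.039 without DMSO replicate 3.

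Of the CKS subunits, CKS2 (ENSG00000123975.5, chromosome 9) had the highest mean TPM of the 10 genes. It stood at 394.50, 264.17, 210.71 and 263.10 TPM in CR31B and at 291.23, 246.81, 169.54 and 269.28 TPM in DMSO. It was higher in CR31B in 3 of 4 pairs, with overlapping groups and a log2 fold change of 0.20 (95% confidence interval -0.27 to 0.68, SE 0.21, adjusted p of 0.622 in limma). The estimate was 0.031 without CR31B replicate 1 and 0.038 without DMSO replicate 3.

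CKS1B (ENSG00000173207.13, chromosome 1), whose product also serves the SCF-SKP2 ubiquitin ligase, had few footprints in its own row. That row held 15.44, 16.06, 10.86 and 13.81 TPM in CR31B and 21.01, 19.90, 13.59 and 20.32 TPM in DMSO. DMSO replicate 3 lay inside the CR31B range, and in each of the 4 pairs CR31B was the lower. The log2 fold change was -0.38 (95% confidence interval -0.76 to -0.012, SE 0.17, adjusted p of 0.201 in limma, and 0.0442 with the replicate block).

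The pseudogene rows that share the CKS1B sequences shown above held far more. CKS1BP6 (chromosome X) was at 214.38, 199.58, 154.21 and 143.27 TPM in CR31B and at 236.19, 267.03, 215.64 and 253.46 TPM in DMSO, with no overlap (log2 fold change -0.46, limma adjusted p of 0.0877, and 0.0453 with the replicate block). CKS1BP2 (chromosome 10) ran from 24.36 to 91.51 TPM in CR31B and from 128.66 to 316.35 TPM in DMSO, a log2 fold change of -1.73 (limma adjusted p of 0.0255, SE 0.39). CKS1BP3 (chromosome 5) ran from 143.92 to 233.44 TPM and from 129.03 to 255.87 TPM, with a log2 fold change of -0.011 (limma adjusted p of 0.981). Rows for nearly identical sequences thus had unequal values, and how the counting divided shared reads between them is not given in the sources used here.

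Summing CKS1B with its 7 copies sets that division aside. The sum was 465.64, 474.65, 399.55 and 427.56 TPM in CR31B and 703.58, 672.55, 546.15 and 700.05 TPM in DMSO. All CR31B libraries lay below all DMSO libraries, and the CKS1B row made up from 2.49% to 3.38% of the sum. Means were 441.9 ± 34.8 and 655.6 ± 74.3 TPM (SD, n = 4 each). The largest part of this difference lay in the CKS1BP2 row, with means of 62.3 TPM in CR31B and 201.8 TPM in DMSO. In the same order the means were 177.9 and 243.1 TPM for CKS1BP6, and 186.9 and 191.1 TPM for CKS1BP3. For the CKS1B row they were 14.0 and 18.7 TPM. The summed log2 fold change was -0.56 (95% confidence interval -0.84 to -0.29, SE 0.12, adjusted p of 0.0237 in limma, and 0.0101 with the replicate block). The copies are annotated at their coding part alone, and the CKS1B transcript is 759 nt long, so 1 read weighs more in a copy's TPM. With each copy weighted by its number of 28-nt windows relative to that transcript, the log2 fold change was -0.55 (limma adjusted p of 0.0238) and the CKS1B row made up from 8.10% to 10.8%. The summed call was lost without CR31B replicate 3 or 4 or without DMSO replicate 1, 2 or 4, at limma adjusted p from 0.0608 to 0.0812 and log2 fold changes from -0.55 to -0.52. Whether footprints came from CKS1B or from a transcribed copy cannot be told apart over shared sequence.

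**Figure D2:**
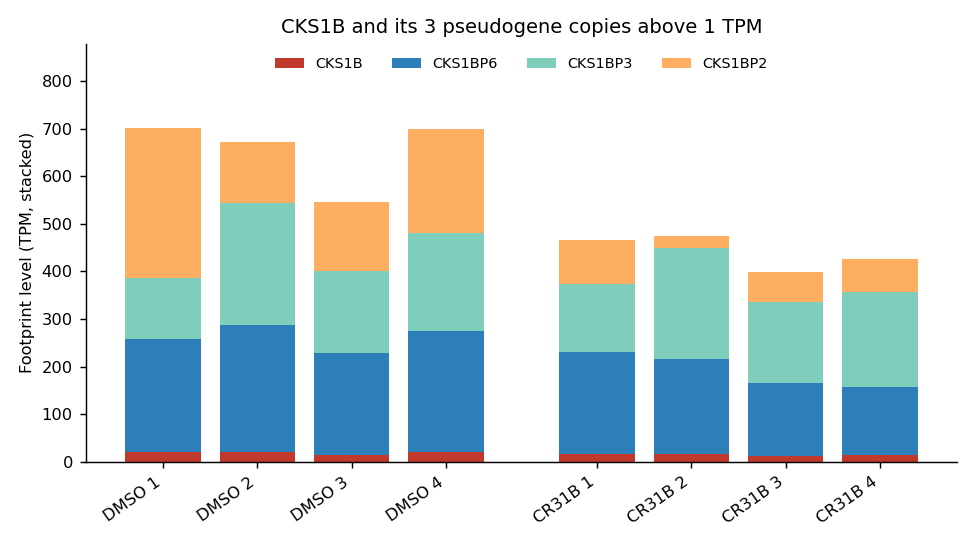
Stacked footprint level in TPM (vertical axis from 0) of CKS1B and its 3 copies with a mean of at least 1 TPM in each library. The CKS1B row is the thin red layer, and the stacks of all 4 CR31B libraries are lower than those of all 4 DMSO libraries.

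**Figure D3:**
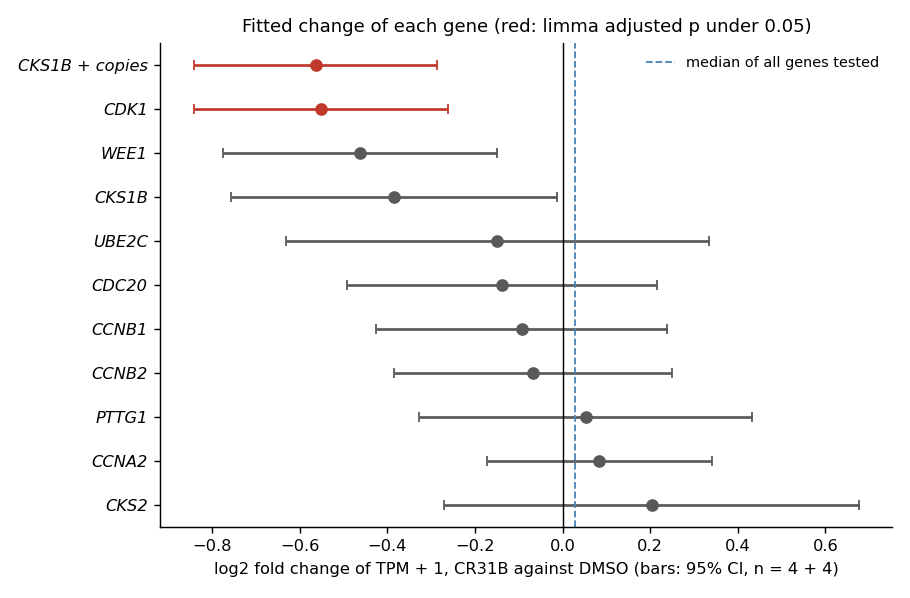
Fitted log2 fold change of TPM + 1, CR31B against DMSO (horizontal axis), with 95% confidence intervals from limma, for the 10 genes and for CKS1B summed with its copies. Red marks a limma adjusted p under 0.05, which CDK1 and the CKS1B sum reached, and the dashed line is the median of all tested genes at 0.029.

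In counts, 7 of the 10 genes had a log2 fold change below 0, against 45.9% of all tested genes, and their median was -0.12 against 0.029. Unadjusted p was under 0.05 for 3 of the 10, a share near the 23.4% of all genes, and no gene of the 10 passed as higher. CDK1 and WEE1, or 2 of the 10 genes, had groups without overlap, against 16.2% of all genes in either direction. With the replicate block 3 of the 10 passed, CDK1, WEE1 and CKS1B, all lower in CR31B, where 12.3% of all genes passed in either direction and 6.56% as lower.

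Ratios of TPM between genes within a library do not depend on the sum that TPM is scaled to, and 6 were compared. The ratios printed for libraries are of TPM. The log2 differences and their tests used TPM + 1, so they depend on that sum to some extent, most for low genes. CCNB1 had 5.68, 4.09, 4.96 and 4.65 times the TPM of CDK1 in CR31B, and 3.64, 3.29, 3.59 and 3.36 times in DMSO. All CR31B ratios exceeded all DMSO ratios, and the log2 ratio differed by 0.46 (exact permutation p of 0.0286, the smallest possible with 4 against 4 libraries, and 0.0857 adjusted over the 6 ratios). The ratio of CKS1B to CKS2 was 0.0391, 0.0608, 0.0515 and 0.0525 in CR31B and 0.0721, 0.0806, 0.0802 and 0.0755 in DMSO. These groups also did not overlap, with a log2 difference of -0.59 and the same exact permutation p of 0.0286 (adjusted 0.0857). With the copies summed into CKS1B without weighting by length, the ratio to CKS2 ran 1.18, 1.80, 1.90 and 1.63 in CR31B. In DMSO it ran 2.42, 2.72, 3.22 and 2.60, a log2 difference of -0.77. The size of this ratio depends on the weighting. Weighted by length, the sum averaged 137.8 TPM in CR31B and 203.2 TPM in DMSO, below the CKS2 means of 283.1 and 244.2 TPM. The ratio of CCNB1 to CDK1 was higher and that of CKS1B to CKS2 lower in 4 of 4 pairs. Neither passed 0.05 after adjustment over the 6 ratios.

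The other 4 ratios overlapped between the groups, and no difference was detectable in them. WEE1 to CDK1, the inhibitory kinase to its target, ran from 0.296 to 0.401 with CR31B against 0.231 to 0.463 with DMSO, a log2 difference of 0.090. For CCNB1 to CCNB2 the ranges were 1.21 to 1.51 and 1.15 to 1.46, with a difference of -0.026. For CDC20 to UBE2C they were 0.322 to 0.397 and 0.259 to 0.428, with a difference of 0.011. Adjusted over the 6 ratios, the exact permutation p was 0.971 for each of these 3. CCNA2 to CCNB1 ran from 0.170 to 0.257 with CR31B against 0.166 to 0.219 with DMSO, a difference of 0.18 (exact permutation p of 0.571 after adjustment).

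**Figure D4:**
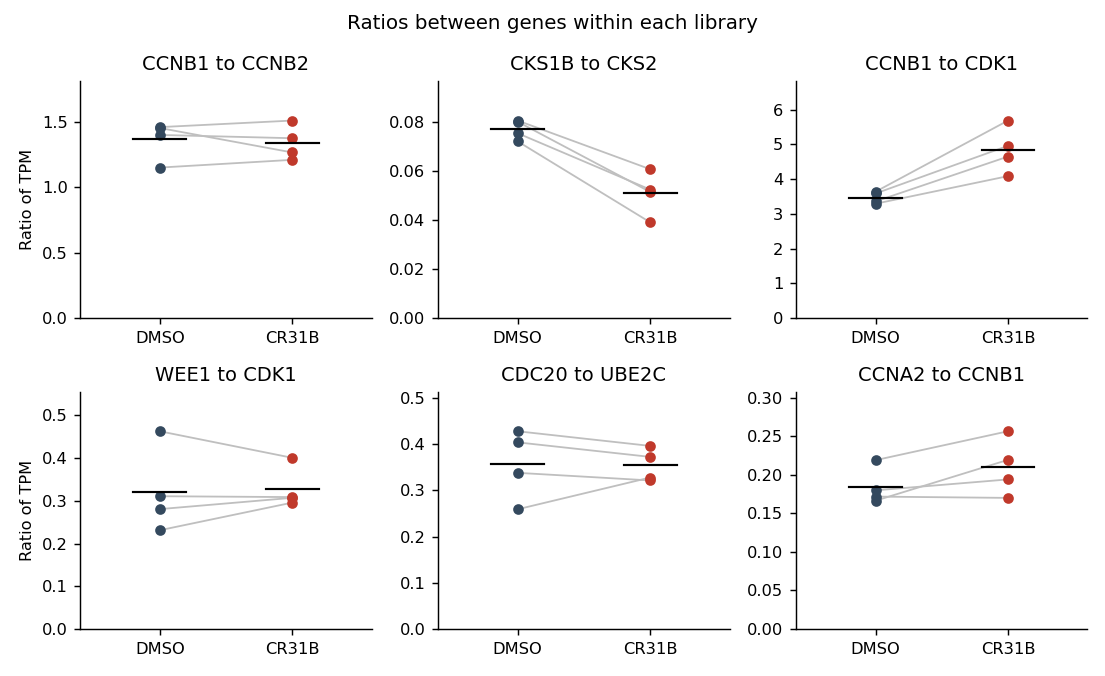
Ratio of TPM between the named genes within each library (vertical axes, from 0), with grey lines joining libraries of the same replicate number and black bars giving group means. CCNB1 to CDK1 is higher and CKS1B to CKS2 lower in every CR31B library than in any DMSO library, and the other 4 ratios overlap.

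The 10 genes did not all vary alike between replicates. Replicate 1 was the highest CR31B library for 7 genes and the highest DMSO library for 7 genes. After removal of group means, CCNB1, CKS2, CDC20, UBE2C and PTTG1 deviated together over the 8 libraries, with correlations between any pair of them from 0.69 (CDC20 and CKS2) to 0.95 (PTTG1 and CCNB1). The correlations of CCNB2 ran from -0.0046 (CKS1B) to 0.84 (CDC20). CCNA2 had its highest correlation with CCNB2 (0.79), and low or negative ones with CKS2 (0.017), CDK1 (-0.21) and CKS1B (-0.41). Those of WEE1 ran from -0.55 (CKS1B) to 0.40 (CCNA2). These libraries also differed in the share of protein-coding TPM (61.3% in CR31B replicate 1 against 51.8% to 52.3% in the other CR31B libraries, 58.4% in DMSO replicate 1), whose part in these deviations was not tested. CKS1B and CDK1 deviated together with a correlation of 0.95. With CCNB1, CKS2, CDC20, UBE2C and PTTG1, the correlations of CDK1 ran from 0.46 (CDC20) to 0.87 (CKS2). Those of CKS1B with the same genes ran from 0.30 (CDC20) to 0.85 (CKS2). Correlations are given as a description, since libraries share their scaling.

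The genes whose levels followed CDK1 most closely over the 8 libraries, of 5613 with a mean of at least 10 TPM, were SFXN1 (Pearson r of 0.987) and PAK2 (0.984). SFXN1, a mitochondrial serine carrier, ran from 70.23 to 81.20 TPM in CR31B and from 90.10 to 120.01 TPM in DMSO. PAK2, a protein kinase, ran from 30.90 to 39.20 TPM and from 45.06 to 64.65 TPM. Both passed the test (limma adjusted p of 0.0281 and 0.0317), and the correlation includes the difference between the groups.

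Rocaglates favour purines, so the 5′ untranslated regions were described. The longest unbroken purine run was 6 nt in CDK1, 7 nt in WEE1 and 5 nt in CKS1B, against a median of 8 nt over 10026 tested genes with an annotated region. Among genes whose footprints showed no detectable change, runs were longer in CDC20 (12 nt), PTTG1 (11 nt) and CCNB1 (10 nt). In the others of these they were short, at 3 nt in CKS2, 5 nt in CCNA2 and 6 nt in CCNB2 and UBE2C. A relation between runs and footprint change was not tested. The share of purines gave another order, with CKS1B highest of the 10 genes at 61.7% (above 92.2% of genes), CDK1 at 52.1%, PTTG1 at 48.6% and WEE1 at 43.9%, against a median of 50.9%. Windows of 30 bases around the run are shown for CDK1, WEE1, CDC20 and PTTG1, with the run in capitals.
CDK1, bases 49 to 78 of the transcript: tggaaattgagcGGAGAGcgacgcggttgt
WEE1, bases 4 to 33: agactggacctGAGGAGAcctcagcctcgg
CDC20, bases 26 to 55: gccgtggccAGGGGGAGGGGGtgctaggcc
PTTG1, bases 21 to 50: ggctccggcGGGGAAGGAGGcgggctgcgg
Among the 10 genes WEE1 had the most GC-rich region, at 79.1% GC (above 89.1% of genes), and CKS1B the shortest, at 47 nt. The CDK1 region was 142 nt long with 55.6% GC, above 16.7% of genes. The transcript that was translated in these cells is not known, so these values describe the annotated principal transcript.

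Related genes were taken from 7 lists of 104 genes, of which 101 were tested. In these lists 2 genes rose and 11 fell, or 12.9% against 7.46% of all genes, and their median log2 fold change was -0.059. Over all tested genes 3.45% rose and 4.02% fell, to be set beside each list count below. The lists were chosen with earlier results of these data known, and their counts are a description. CCNA1, CCNB3 and WEE2 had a mean below 1 TPM and were not tested.

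Among 18 tested cyclins and regulators of CDK1, 1 rose and 4 fell (3.45% and 4.02% of all genes), with a median of -0.15. MNAT1, a subunit of the kinase that activates CDK1, rose to 49.9 ± 7.10 TPM with CR31B, from 27.2 ± 3.91 TPM with DMSO (SD, n = 4 each, log2 fold change 0.85, limma adjusted p of 0.00709). Of the 13 genes called in the lists, MNAT1 and ANLN passed in all 17 alternatives, while CDKN1A passed in 11, CDC25B in 10 and CDK2 in 8. The falls included both an inhibitor and an activator of CDK1, named after their values were seen. PKMYT1, the membrane-bound relative of WEE1, was at 25.27, 22.13, 21.21 and 25.37 TPM in CR31B and at 41.66, 32.67, 42.13 and 32.62 TPM in DMSO (log2 fold change -0.64, limma adjusted p of 0.0160). CDC25B, a phosphatase that removes the WEE1 mark, fell from 71.3 ± 7.91 to 45.8 ± 9.40 TPM (-0.64, limma adjusted p of 0.0347), and CDK2 changed by -0.53 (limma adjusted p of 0.0382). CDKN1A, an inhibitor of cyclin-dependent kinases, changed by -0.65 (limma adjusted p of 0.0299). Exons of PKMYT1, CDK2 and CDKN1A overlap genes on the opposite strand and those of MNAT1 a non-coding gene on the same strand, so their values are uncertain to that extent.

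The 22 genes of APC/C subunits, coactivators, enzymes and inhibitors had a median of -0.032, and 1 fell. This was FZR1, the coactivator that takes over from CDC20 after mitosis. It was at 11.90, 12.26, 10.01 and 13.18 TPM in CR31B and at 20.50, 18.14, 16.39 and 19.99 TPM in DMSO, with no overlap (log2 fold change -0.62, limma adjusted p of 0.0154, SE 0.12). Its exons overlap MFSD12 on the opposite strand. For CDC20 the log2 fold change was -0.14 (limma adjusted p of 0.656), and the difference between both coactivators was not tested.

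Of 12 genes of the Greatwall pathway and the phosphatases that oppose CDK1, 4 fell (4.02% of all genes) and none rose, with a median of -0.19. PPP2CA, a catalytic subunit of PP2A, was at 113.89, 79.22, 79.78 and 85.66 TPM in CR31B and at 168.40, 133.91, 132.51 and 164.55 TPM in DMSO (log2 fold change -0.74, limma adjusted p of 0.0147, SE 0.15). Its exons overlap 2 other transcribed loci on the same strand. The other falls, named after their values were seen, were in PPP2CB, the second PP2A catalytic subunit (-0.69), PPP1CC, a PP1 catalytic subunit (-0.65), and ARPP19, a PP2A inhibitor that Greatwall activates (-0.62), with limma adjusted p of 0.0331, 0.0163 and 0.0325. PPP2CB passed in 10 and ARPP19 in 11 of 17 alternatives. In each of these 4 genes all CR31B libraries lay below all DMSO libraries, which was so for 8.14% of all tested genes. The 4 were picked as called lower, so this adds no separate evidence.

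The remaining lists held few changes. Of 14 transcription factors of late cell cycle genes, 1 rose, LIN54, the MuvB subunit that binds the CHR. It was at 6.02, 6.21, 12.32 and 5.11 TPM in CR31B and at 2.68, 3.41, 3.05 and 3.40 TPM in DMSO (log2 fold change 0.96, limma adjusted p of 0.0288), with CR31B replicate 3 far above the rest, and passed in 11 of 16 alternatives. Of 18 other APC/C substrates 2 fell, ANLN (-0.89, limma adjusted p of 0.0109) and CDCA3 (-0.63, limma adjusted p of 0.0338, passing in 10 of 17 alternatives and named after its value was seen). Exons of both overlap genes on the opposite strand. None of 11 separase and cohesin genes passed in limma, with or without the replicate block (2 at an unadjusted p under 0.05, against 23.4% of all genes). None of 8 genes of the SCF ligase and WEE1 turnover passed in limma either (1 at an unadjusted p under 0.05, and 1 passed with the replicate block). The count of 13 called genes fell to 8, 7, 5, 5 and 3 without CR31B replicate 3, CR31B replicate 4, DMSO replicate 1, DMSO replicate 2 and DMSO replicate 4, and was 16 with the replicate block, where 12.3% of all genes passed.

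**Figure D5:**
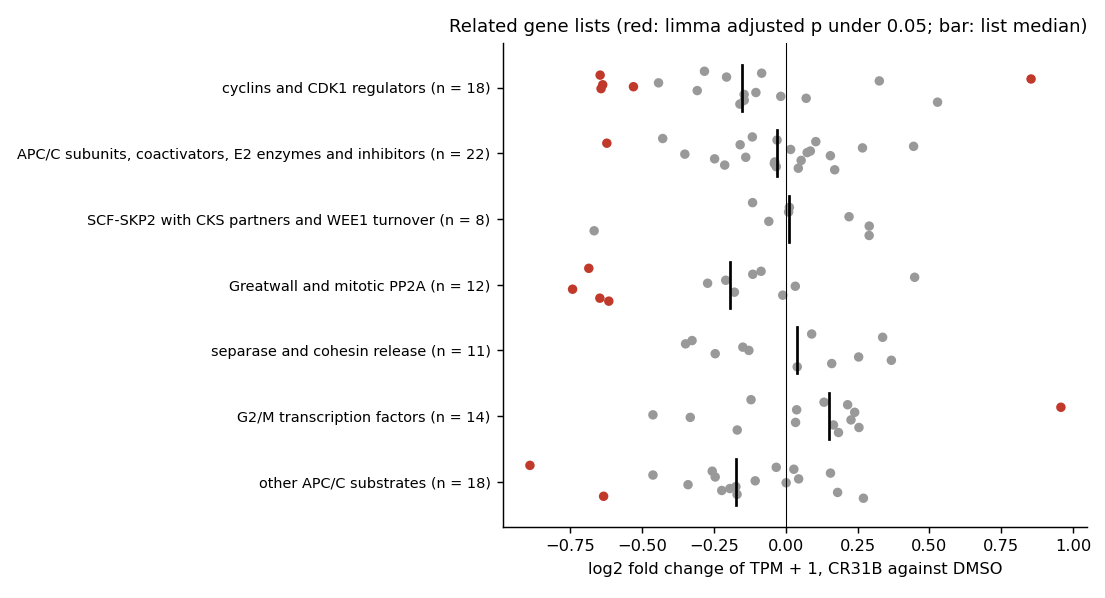
Log2 fold change of TPM + 1, CR31B against DMSO (horizontal axis), of each tested gene in the 7 related lists, with a black bar at the list median and red points at a limma adjusted p under 0.05. Red points on the right are MNAT1 and LIN54, and the 11 others lie on the left.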

How the data were processed

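Ribosome footprints of 8 IMR32 libraries were analysed from 1 table of TPM, deposited by the authors, with versioned Ensembl identifiers. The submitters' processing notes name cutadapt 3.2, Bowtie2 2.3.4.1, STAR 2.7.1a, RSEM 1.2.28, DESeq2 1.32.0 and the build hg38, without their roles; the annotation, strand setting and handling of multi-mapping reads are not given in the sources used here. Libraries were sequenced in 2 runs, and which library was in which run is not given, so no run effect could be computed. Symbols were matched for 60481 of 60651 identifiers, and coordinates, overlaps and transcripts came from GENCODE release 29 (GRCh38).

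Values were analysed as log2(TPM + 1) with limma 3.58.1 (mean-variance trend, R 4.3.3) for the 11778 genes whose mean reached 1 TPM, treatment as the only term, and Benjamini-Hochberg adjustment over all genes tested. Fold changes on this scale understate the change of low genes. Log2 ratios of TPM + 1 were tested by two-sided exact permutation over 70 assignments. In 5 simulated tables of 11778 genes, the fit for CR31B against DMSO recovered 82.3% of 2-fold and 99.2% of 4-fold changes, and 4.21% of calls were false. Noise was drawn independently for each gene and library, without deviations shared by a replicate number. Changes below 2-fold, such as that of CDK1, were not simulated, so these shares do not apply to them. TPM keeps no depth; reads were estimated from the spacing of low values in genes with 1 transcript and the length of the principal transcript, and cover counting error only. Other steps used Python 3.11.15 with pandas 2.3.3, NumPy 2.4.6 and SciPy 1.17.1, and figures matplotlib 3.10.9.

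Libraries with the same replicate number deviated together across genes after group means were removed (correlations of 0.333, 0.324, 0.301 and 0.105 for numbers 1 to 4), so an alternative limma fit took the replicate block as a second term. What a number marks (a day, a passage) is not given in the sources used here. The genes and lists were chosen with earlier results of these data known. The 10 genes were always named, as were the called list members with the largest rise and fall in each list, copies with a mean of at least 1 TPM, and the 2 genes most correlated with each called gene. Alternatives changed the pseudocount, the filter, the scaling, the trend, the block and the libraries. Protein sequence motifs were not analysed here.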

Additional observations from a re-analysis of the deposited data

Results flagged for a closer look

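In 34 groups of 4 libraries (the 10 genes, the CKS1B sum and the 6 ratios, in CR31B and in DMSO), 4 held a library whose gap to its nearest neighbour took up more of the group's range than Dixon's 95% limit allows. Chance gives about 1 in 20, or 1.7 of 34.

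CR31B replicate 1 stood apart in CCNB1, at 196.43 TPM while the remaining 3 lay between 139.17 and 143.49 TPM, and in PTTG1, at 368.25 TPM against 228.39 to 244.04 TPM. Rescaled to the protein-coding TPM of each library, CCNB1 was at 320.5 in that library against 270.9, 266.1 and 276.2 in the others, and PTTG1 at 600.8 against 441.0, 446.5 and 469.7.

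DMSO replicate 3 was low in CKS1B, at 13.59 TPM against 19.90 to 21.01 TPM in the other DMSO libraries. The log2 ratio of WEE1 to CDK1, taken on TPM + 1, was -1.25 in CR31B replicate 3 against -1.65 to -1.61 in the other CR31B libraries.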

How the results depend on the processing

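Among 294 recomputed values, 252 gave the same call and sign. Another 12 lost the call, 5 gained it, 13 changed sign, and 12 counts shifted by over 1.5 times. Without any filter on low values CDK1 had a log2 fold change of -0.55 (limma adjusted p of 0.0757), the CKS1B sum one of -0.56 (0.0609), 442 genes passed in all and 5 in the related lists. With the replicate block 1453 genes passed; CKS1B (-0.38, limma adjusted p of 0.0442) and WEE1 (-0.46, 0.0334) then passed, and of the 10 genes no other call changed. WEE1 also passed with median-of-ratios scaling (-0.48) and quantile normalization (-0.50). The sum of CKS1B with its copies passed (-0.56), of which the CKS1B row held from 2.49% to 3.38%. Leaving out 1 library each gave 404 to 785 called genes, 3 to 13 in the related lists, and log2 fold changes from -0.65 to -0.49 for CDK1, -0.65 to -0.52 for the CKS1B sum, -0.11 to 0.12 for PTTG1, -0.17 to 0.033 for CCNB2 and -0.32 to 0.020 for UBE2C. The log2 ratio differences ran from -0.11 to 0.021 for CCNB1 to CCNB2, from -0.046 to 0.27 for WEE1 to CDK1 and from -0.13 to 0.11 for CDC20 to UBE2C. Those changes of sign came from leaving out libraries; no scaling or pseudocount reversed a gene of the 10. Some settings lower the number of libraries or raise the number of genes tested. The cause of the changed calls was not tested for any setting. The runs of the CKS1B sum under other settings and the weighting by length were added after seeing the data. Ratios in 4 pairs allow no p below 0.125.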
